A study of Mus musculus with 11 samples.

Results

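Of the 94963 open chromatin regions listed for MPC2 cells, 1364 lay in gene deserts, 1.44% of the list (95% Wilson interval 1.36 to 1.51%). A region was placed there when it overlapped no gene of any type in the GENCODE vM21 annotation of the mm10 mouse genome and lay over 100 kb from every annotated transcript start. MPC2 is a conditionally immortalized mouse mesenchymal progenitor line grown from a single clone, so the regions describe 1 clonal line and not bone tissue. ATAC-seq, in which the Tn5 transposase cuts accessible DNA and leaves sequencing adapters, was run on 11 cultures. Of these, 6 were undifferentiated (MSC), 3 in DMSO vehicle and 3 in FG-4592, and 5 were osteocytes, 2 in vehicle and 3 in the drug, obtained by keeping MPC2 cells for 3 weeks in osteogenic medium. FG-4592, also named Roxadustat, blocks the prolyl hydroxylases that mark HIF for decay and so mimics hypoxia. It was given at 50 uM for 48 hours.

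The study asked how mimicked hypoxia acts on chromatin in MSCs and osteocytes. The list used here pooled all cultures and gave each region a single value, read as the average log2 CPM (cuts scaled to the size of each library) over the samples and referred to below as its level. No value per culture was in the list, so a drug or differentiation effect at these regions was not measured here, replicate error could not be given, and the depth of each culture was unknown. The differential accessibility results that the authors computed for these contrasts were not used. All comparisons below are between sets of regions, and their intervals cover counting error only. The labelled cell type was checked against fixed markers. A region lay within 1 kb of a transcript start at 11 of 14 mesenchymal and osteogenic markers, with levels of 2.33 to 6.13 and a median of 4.89. The same held for 3 of 8 haematopoietic markers, with levels of 2.39 to 4.76 and a median of 2.69, and for 4 of 5 neuronal markers, with levels of 0.89 to 2.76 and a median of 1.99. It also held for 2 of 4 endothelial markers (1.16 and 1.89) and 1 of 5 epithelial markers (2.02), and for none of Myod1, Myog and Ckm, which mark skeletal muscle. Thy1, Postn and Phex were the mesenchymal or osteogenic markers without a region. Presence of a region therefore did not set the labelled type apart from the neuronal markers. The median level was highest at the mesenchymal and osteogenic markers. The share over all genes is not given here.

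Gene deserts are long stretches of the genome without genes. Many border genes that encode developmental regulators, and open regions in them are often enhancers, which loop over long distances to the promoter they act on. Others bind CTCF, the protein that anchors chromatin loops. An enhancer need not act on the nearest gene, so a gene named below as the neighbor of a desert is a position on the chromosome and not a target. AP-1, the Fos and Jun dimer, binds many enhancers of mesenchymal cells, TEAD proteins act with YAP and often sit beside AP-1, and RUNX proteins include Runx2, the master regulator of osteoblasts. The hypoxia response element (HRE) core is the short sequence bound by HIF.

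The central 200 bp of 6 desert regions show the kinds of sequence involved (mm10 plus strand, read from the RefSeq copy of the assembly). The pair with the highest levels among regions holding an AP-1 site in this window come first, with TGACTCA or TGAGTCA in capitals. They lay between Disc1 and Sipa1l2 (chr8:125343620-125344657, level 4.61) and between Nr2f1 and Arrdc3 (chr13:78809573-78810249, level 4.59), and the former window held 2 AP-1 sites.
Disc1 and Sipa1l2, chr8:125344039-125344238: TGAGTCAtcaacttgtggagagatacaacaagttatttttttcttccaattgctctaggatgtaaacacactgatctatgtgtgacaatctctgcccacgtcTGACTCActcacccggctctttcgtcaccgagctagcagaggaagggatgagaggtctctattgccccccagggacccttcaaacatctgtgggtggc
Nr2f1 and Arrdc3, chr13:78809812-78810011: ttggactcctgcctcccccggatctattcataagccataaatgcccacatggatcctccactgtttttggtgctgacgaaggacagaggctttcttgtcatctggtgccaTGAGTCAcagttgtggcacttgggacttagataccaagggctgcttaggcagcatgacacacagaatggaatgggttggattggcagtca
The region with the highest level among those with an HRE core in this window lay between Adamts16 and Irx1 (chr13:71375640-71376760, level 5.02), and the highest with a CTCF core there between Angpt1 and Rspo2 (chr15:42962478-42963175, level 3.19). Capitals mark the HRE core and the CTCF core.
Adamts16 and Irx1, chr13:71376101-71376300: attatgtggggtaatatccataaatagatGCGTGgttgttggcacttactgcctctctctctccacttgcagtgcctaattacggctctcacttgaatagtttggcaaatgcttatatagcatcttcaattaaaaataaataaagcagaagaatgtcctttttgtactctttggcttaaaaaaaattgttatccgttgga
Angpt1 and Rspo2, chr15:42962727-42962926: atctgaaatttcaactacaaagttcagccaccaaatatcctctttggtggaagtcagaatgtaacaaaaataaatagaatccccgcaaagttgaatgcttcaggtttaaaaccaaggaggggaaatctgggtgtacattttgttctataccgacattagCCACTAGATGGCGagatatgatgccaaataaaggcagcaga
The most accessible desert region of all, between Runx1 and Setd4 (chr16:93238166-93239734, level 6.39), held none of the 10 motifs searched in its central window and is shown without capitals. The region farthest from any GENCODE start, between Dsel and Cntnap5a (chr1:114673728-114674587, level 4.41), is shown with its E-box (CAGCTG) and CEBP site in capitals.
Runx1 and Setd4, chr16:93238851-93239050: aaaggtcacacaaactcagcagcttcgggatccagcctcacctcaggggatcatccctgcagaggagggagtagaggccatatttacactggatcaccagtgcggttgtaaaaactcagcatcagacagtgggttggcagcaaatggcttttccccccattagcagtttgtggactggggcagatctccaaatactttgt
Dsel and Cntnap5a, chr1:114674058-114674257: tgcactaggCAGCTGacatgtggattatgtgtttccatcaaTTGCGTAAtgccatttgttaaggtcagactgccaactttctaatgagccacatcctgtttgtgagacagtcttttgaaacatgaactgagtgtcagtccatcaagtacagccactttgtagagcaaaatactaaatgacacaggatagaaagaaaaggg

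Desert regions were weaker and narrower than other gene-free regions. Their median level was 1.52 (quartiles 0.81 and 2.47, range -0.78 to 6.39), and their median width was 372 bp (quartiles 260 and 612 bp, range 200 to 1621 bp). The 18772 gene-free regions 10 to 100 kb from a start, the nearest class for comparison, had medians of 1.83 and 410 bp. The difference in median level, deserts minus nearer regions, was -0.30, with a 95% interval of -0.38 to -0.23 from the order of the values. Level followed width closely among the 1364 regions (Pearson r = 0.90 and Spearman rho = 0.91, across regions of a single list), so levels were also compared within 20 bins of width. The desert median was lower in 20 of 20 bins, by 0.13 on average over desert regions. Of the desert regions, 445 (32.6%) reached the median level of the whole list, 2.12, and 145 (10.6%) reached its upper quartile, against 40.9% and 14.6% of the regions 10 to 100 kb away. The median level of regions within 1 kb of a start, 3.89, was reached by 73 desert regions (5.35%). Desert regions made up 0.646% of the summed CPM of the list.

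Open regions became sparser with distance from genes. Gene-free sequence beyond 100 kb from a start came to 180.8 Mb, 6.83% of the sequenced genome and 12.7% of gene-free sequence. It held 7.54 regions per Mb, against 22.0 per Mb at 10 to 100 kb, a ratio of 0.343 (95% interval 0.325 to 0.363). Between 100 and 200 kb lay 1108 regions at 8.12 per Mb with a median level of 1.56. Between 200 and 500 kb lay 254 regions at 5.82 per Mb with a median level of 1.31, and 2 regions lay beyond 500 kb. The regions covered 0.361% of the eligible sequence. Within the deserts, the rank correlation of level with distance from a start was small and negative (Spearman rho = -0.09, n = 1364 regions of a single list), and the region farthest out had a level of 4.41.

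**Figure D1:**
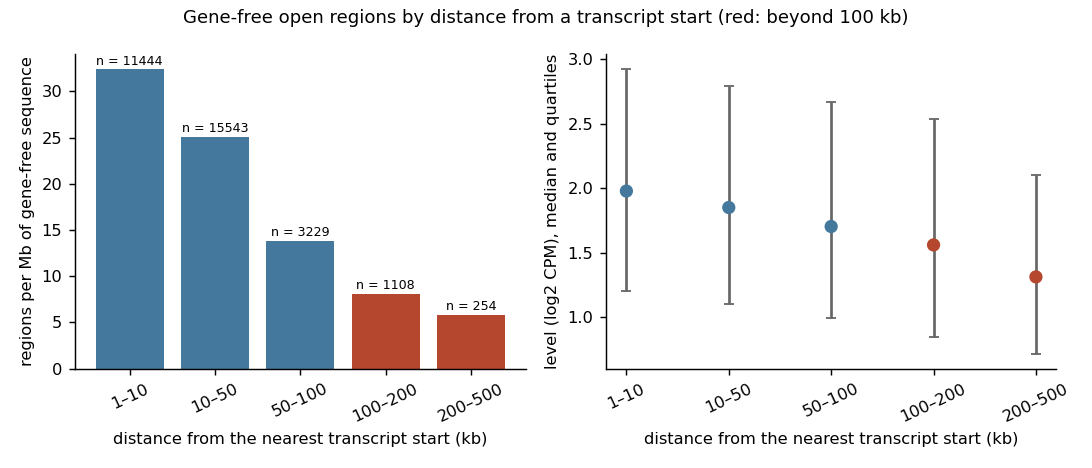
The left panel plots regions per Mb of gene-free sequence by distance from the nearest transcript start, and the right panel plots their median level with quartiles, with red for regions beyond 100 kb. Density goes from 32.4 per Mb at 1 to 10 kb to 5.82 per Mb at 200 to 500 kb, and the median level from 1.98 to 1.31, while the quartiles of neighboring bins overlap widely.

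At the 100 kb limit, levels were mixed on both sides. The 3 regions just inside lay 100036, 100036 and 100068 bp from a start and had levels of 1.21, 4.54 and -0.17. The 3 just outside lay 99931, 99896 and 99891 bp away and had levels of 0.59, 3.93 and 0.34.

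For most desert regions the nearest start was not a coding one. The rule covers coding starts as well, so all of these lay over 100 kb away by definition. The median desert region lay 136 kb from the nearest start of any transcript and 257 kb from the nearest coding start, and 247 regions (18.1%) lay over 500 kb from a coding start. In 214 regions (15.7%) the nearest start was a coding one, and elsewhere it belonged to a noncoding gene or pseudogene. The RefSeq annotation of the same assembly placed 114 desert regions (8.36%) inside a gene, 569 (41.7%) within 100 kb of a start and 27 within 1 kb of a start, with a median level of 2.09 for those 27. The 788 regions (57.8%) that were deserts under both annotations had a median level within the 95% interval of the median of all 1364, 1.45 to 1.59.

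Desert regions stood out from the sequence around them. Eligible desert sequence had a GC content of 38.5% and was 41.9% repeat-masked, against 41.7% and 36.4% for the genome. In the central 200 bp of the regions the mean GC content was 46.3% and the masked share 17.8%. In 2628 windows of the same size 10 kb to either side, free of any region, GC was 40.4% and the masked share 33.7%. Regions 10 to 100 kb from starts were richer in GC, at 48.4%, and less masked, at 14.1%. CpG-rich sequence had GC of at least 55% and an observed over expected CpG of at least 0.6. It was found in 2 of 1364 desert regions and in 112 of 18772 regions of the 10 to 100 kb class. These 2 lay between Camk1g and Plxna2 (chr1:193632664-193633002, level 1.93) and between Ywhaq and Gm10330 (chr12:21898812-21899382, level 1.95), 22.5 and 15.2 kb from a RefSeq start. At least 90% of the sequence was masked in 43 desert regions (3.15%) and in 228 regions (1.21%) of the 10 to 100 kb class.

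AP-1 was the motif that set desert regions most clearly apart from their surroundings among those found in over 5% of them. The letters searched, on both strands of the central 200 bp, were TGACTCA or TGAGTCA for AP-1, ACGTG or GCGTG for the HRE core, GGAATG for TEAD, TGTGGTT for RUNX, AGATAA for GATA, TTGCNNAA for CEBP, CAGCTG for the E-box, CCGGAA for ETS, ATGCAAAT for POU, and the core consensus for CTCF. TEAD and ETS matches can share letters, as can CEBP and POU matches, and a match is a stretch of letters and not a bound site. AP-1 letters occurred in 207 of 1364 regions, 15.2% (13.4 to 17.2%), against 3.23% (2.62 to 3.98%) of the windows 10 kb away, a ratio of 4.69. In regions 10 to 100 kb from starts the share was 14.3%, and 0.90 percentage points separated the classes (interval -0.97 to 2.97), so no difference was detectable with these letters. With the looser TGANTCA the difference was 2.28 points (0.16 to 4.56), an interval that leaves out 0. Of all listed regions, 12.1% held the site.

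RUNX letters were found in 11.2% of desert regions and 4.22% of the windows 10 kb away, and TEAD letters in 16.3% and 11.7%. CTCF cores, rarer in both, were found in 1.83% of regions and 1 of the 2628 windows (0.0381%), and E-box letters in 12.7% and 7.12%. GATA and POU letters went the other way, with 8.72% of regions and 13.9% of the windows for GATA and 0.953% (0.558 to 1.62%) and 2.05% (1.58 to 2.67%) for POU. The ratio of regions to windows was 0.63 for GATA, 0.46 for POU, 1.39 for TEAD and 1.78 for E-box letters. At 10 to 100 kb it was 0.68, 0.51, 1.40 and 1.83, so these contrasts were not particular to deserts. The ratios of RUNX letters (2.66 in deserts and 1.98) and CTCF cores (48.2 and 88.6) differed more. The windows were also poorer in GC than the regions. None of the 10 motifs was found in 459 desert regions (33.7%), close to the 33.2% of the 10 to 100 kb class.

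HRE and CTCF cores were less frequent in deserts than in regions 10 to 100 kb from starts, and the intervals of E-box and RUNX letters also left out 0. An HRE core was present in 177 desert regions, 13.0% (11.3 to 14.9%), and in 18.8% of regions 10 to 100 kb from starts, a difference of -5.83 percentage points (-7.60 to -3.86). The windows 10 kb away showed the same order, with 10.5% and 15.1%, and the ratio of regions to windows was 1.24 and 1.25. Both versions of the core contain CpG, and desert sequence was poorer in GC. Within 10 bins of GC content the difference was -4.30 points. With ACGTG alone it was -1.55 points, with an interval of -2.89 to 0.02 that includes 0. A CTCF core was found in 25 desert regions, 1.83% (1.24 to 2.69%), and in 3.76% of the 10 to 100 kb class, a difference of -1.92 points (-2.57 to -1.02) that was -1.72 within bins of GC. The difference for E-box letters was -2.29 points (-4.03 to -0.35) and -0.52 within bins of GC, and for RUNX letters 1.76 points (0.13 to 3.59) and 0.72.

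**Figure D2:**
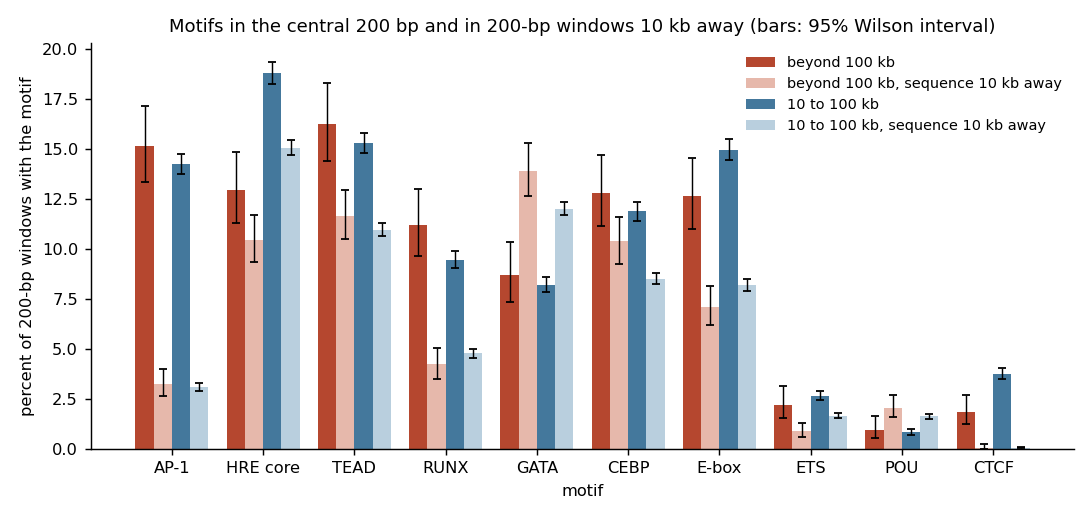
Each bar is the percent of 200-bp windows holding a motif, for regions beyond 100 kb and 10 to 100 kb from starts (dark) and for windows 10 kb to their sides (pale), with 95% Wilson intervals. AP-1 reaches 15.2% and 14.3% of regions against 3.23% and 3.08% of windows, and HRE and CTCF cores are lower beyond 100 kb than at 10 to 100 kb.

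AP-1 letters were more frequent in desert regions with more signal for their width. Level per kb, the level minus the log2 of the width in kb, split the desert regions into 4 bins of 341. From lowest to highest the bins had median widths of 290, 333, 371 and 646 bp, so width was not held fixed. AP-1 letters were found in 6.16% of the lowest bin (4.06 to 9.23%), 9.38% of the next, 23.2% of the third and 22.0% (17.9 to 26.7%) of the highest. At 10 to 100 kb the shares were 7.56, 14.1, 16.6 and 18.9%. CTCF cores were counted in 0, 2, 11 and 12 desert regions of the bins from lowest to highest, where a count of 0 of 341 allows up to 0.880%. The HRE core showed no such order in deserts, with 14.1, 13.5, 10.9 and 13.5%, while at 10 to 100 kb its share went up with each bin, from 17.4% in the lowest to 21.9% in the highest.

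Desert regions were spread unevenly over the chromosomes. Chromosome 16 held 200 of them, 14.7% of all on 5.26% of the eligible sequence, or 21.0 per Mb against 7.26 per Mb on the other autosomes, a ratio of 2.90. At 10 to 100 kb from starts the same ratio was 1.95, so chromosome 16 was denser there as well. Its desert regions were weak, with a median level of 1.13, as were its regions at 10 to 100 kb, with 1.53. Chromosomes 2 and 4 held 142 each and chromosome 1 held 125. Chromosome 9, with 16 regions at 3.08 per Mb, and chromosomes 3, 6 and 14, at 3.29, 3.34 and 3.91 per Mb, were the sparsest autosomes. X held 26 in 11.8 Mb, and Y held none in 2.67 Mb. Density was lower beyond 100 kb than at 10 to 100 kb on all 20 chromosomes with desert regions, and the median level was lower on 18, with 18 and X as the exceptions at 0.03 and 0.08 above. On the 18 chromosomes with at least 30 desert regions, the HRE core share was lower in deserts on 17, all but chromosome 3, while the AP-1 share was higher on 11.

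**Figure D3:**
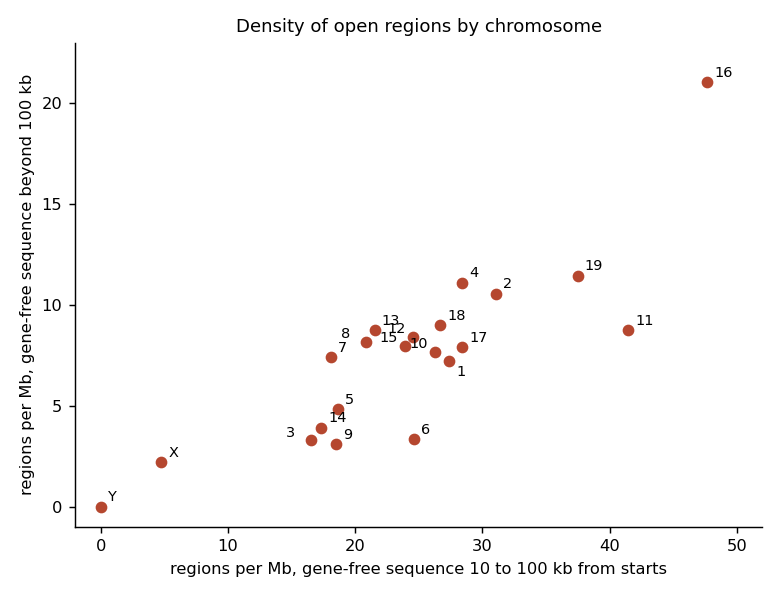
Each point is a chromosome, with regions per Mb of gene-free sequence 10 to 100 kb from starts on the horizontal axis and beyond 100 kb on the vertical axis. Chromosome 16 stands highest on both axes at 47.6 and 21.0 per Mb, and X and Y are lowest.

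The regions were concentrated in a minority of deserts. A desert was taken as the stretch between neighboring genes of any type that holds sequence over 100 kb from a start, and 454 of 1488 deserts (30.5%) held a region there. These 454 had a median of 118 kb of eligible sequence, against 63.9 kb for the 1034 without a region, and together held 43.3% of all eligible sequence. A single region lay in 202 deserts and 2 regions in 107, while 76 deserts with at least 5 held 711 regions (52.1%) and 30 deserts with at least 10 held 424 (31.1%). The 10 deserts with most regions held 186, 13.6% of all (11.9 to 15.6%), on 1.66% of the eligible sequence. They were picked by these counts, which alone raises their share of regions above their share of sequence. The spread that evenly placed regions would show was not computed. Larger deserts were not denser, and deserts with over 400 kb of eligible sequence held 3.42 regions per Mb and those under 50 kb held 14.5. Neighbors within a desert lay a median of 11.1 kb apart (quartiles 3.63 and 30.2 kb, 910 pairs), with 101 pairs (11.1%) within 1 kb and 122 (13.4%) over 50 kb apart. Among deserts with at least 5 regions the median level ranged from 0.30 to 3.35.

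A coding gene is placed beside a desert below when it is the nearest coding gene on that side, although noncoding genes may lie between. The desert with most regions lay beyond Bmp2, the gene of a bone-inducing ligand, on chromosome 2. It ran over 913 kb (chr2:133584422-134497360) from 21.5 kb past the end of Bmp2 to Hao1, a peroxisomal oxidase of liver, and held 26 regions from 209 to 893 kb from the Bmp2 start. Levels ran from 0.02 to 4.36 with a median of 1.25. The strong regions sat at the far end. Of the 12 that reached the list median, 11 were nearer to the start of Hao1 than to that of Bmp2, as were 18 of all 26. The highest, at chr2:134342418-134343315, lay 790 kb from the Bmp2 start and 211 kb from that of Hao1, and the next, with 3.67, lay 830 kb from Bmp2. AP-1 letters were found in 6 of the 26 and an HRE core in 0 of 26, which allows up to 11.5%. Over all desert regions the shares were 15.2% and 13.0%, and a difference from these was not tested.

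Sox9, the master regulator of cartilage, had deserts on both sides, which differed in density and level. The 211 kb desert that began 44.7 kb past its end, toward the zinc transporter gene Slc39a11 (chr11:112832470-113043894), held 12 regions 171 to 250 kb from the Sox9 start, or 10.1 per 100 kb of eligible sequence, with a median level of 3.15. Its strongest regions had levels of 5.41, 5.24, 4.54 and 4.10, and 9 of 12 reached the list median. The 532 kb desert that ended 118 kb before the Sox9 start, toward the potassium channel gene Kcnj2 (chr11:112132197-112663926), held 14 regions 215 to 542 kb from Sox9, or 3.87 per 100 kb. These were weaker, with a median of 1.55, a maximum of 2.68 and 3 of 14 at or above the list median. The ranges of the 2 deserts overlapped. A desert with 16 regions began at Ttc32 and ended 198.7 kb short of Osr1, a transcription factor of limb and kidney mesenchyme (chr12:9041989-9371437). All 16 were nearer to the start of Ttc32, at 121 to 232 kb, than to that of Osr1, at 308 to 418 kb. Their median level was 1.81, and the strongest, of 4.90, was 1464 bp wide. Runx2 had no desert beside it.

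Of the 8 deserts with most regions and the pair beside Sox9, the one near Klf4 had its regions closest together. Klf4, a transcription factor of stem cells and epithelia, lay 104 kb from a desert toward Actl7b, an actin-like gene of testis (chr4:55636902-55969022). Its 22 regions lay 175 to 350 kb from the Klf4 start and a median of 4.02 kb apart. The strongest region had a level of 5.37, and 8 other regions lay within 20 kb of it, all 8 at or above the list median, with 4.17, 4.05 and 3.87 as the next levels. In the whole desert 15 of 22 reached that median and 7 of 22 held an AP-1 site, against 15.2% of all desert regions.

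Extracellular matrix genes were the nearest coding gene on 1 side of 3 of the 8 deserts with most regions, with noncoding genes between. A 490 kb desert on chromosome 16 (chr16:86269151-86758898) lay 367 kb from Adamts5, an aggrecan-cleaving protease, and 595 kb from N6amt1, a methyltransferase. It held 23 regions 458 to 743 kb from the Adamts5 start, with a median of 1.52 and a maximum of 4.01. Thbs1, the matrix glycoprotein thrombospondin-1, and Rasgrp1, a Ras activator of lymphocytes, lay 310 and 74.7 kb from the edges of a desert with 17 regions on chromosome 2 (chr2:117417698-117802116). These had a median of 2.39 and a maximum of 3.78, and lay 418 to 581 kb from Thbs1 and 188 to 351 kb from Rasgrp1. Tnc, the matrix glycoprotein tenascin-C, and Pappa, a protease of IGF-binding proteins, lay 398 and 267 kb from the edges of a desert with 16 regions on chromosome 4 (chr4:64444859-64856925). Their median was 2.16 and the strongest had levels of 4.41 and 4.19, with 13 of 16 nearer to the start of Pappa.

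The other deserts with most regions lay beside Gata6 and Rbfox1. Gata6, a transcription factor of endoderm and heart, directly bordered a 539 kb desert (chr18:11085636-11624914) that ended 8.36 kb short of Rbbp8, a DNA repair gene. It held 18 regions 142 to 399 kb from the Gata6 start and 181 to 438 kb from that of Rbbp8, with a median of 1.82 and levels from -0.11 to 4.01. Of these, 8 were nearer to the start of Rbbp8, as were 4 of the 6 that reached the list median. Rbfox1, a splicing regulator of neurons, bordered a desert of 435 kb on chromosome 16 (chr16:5450665-5885354) on the side of Eef2kmt, a methyltransferase. Its 18 regions were the weakest of these groups, with a median of 1.01. An HRE core was held by 5 and an AP-1 site by 1, against 13.0% and 15.2% of all desert regions.

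**Figure D4:**
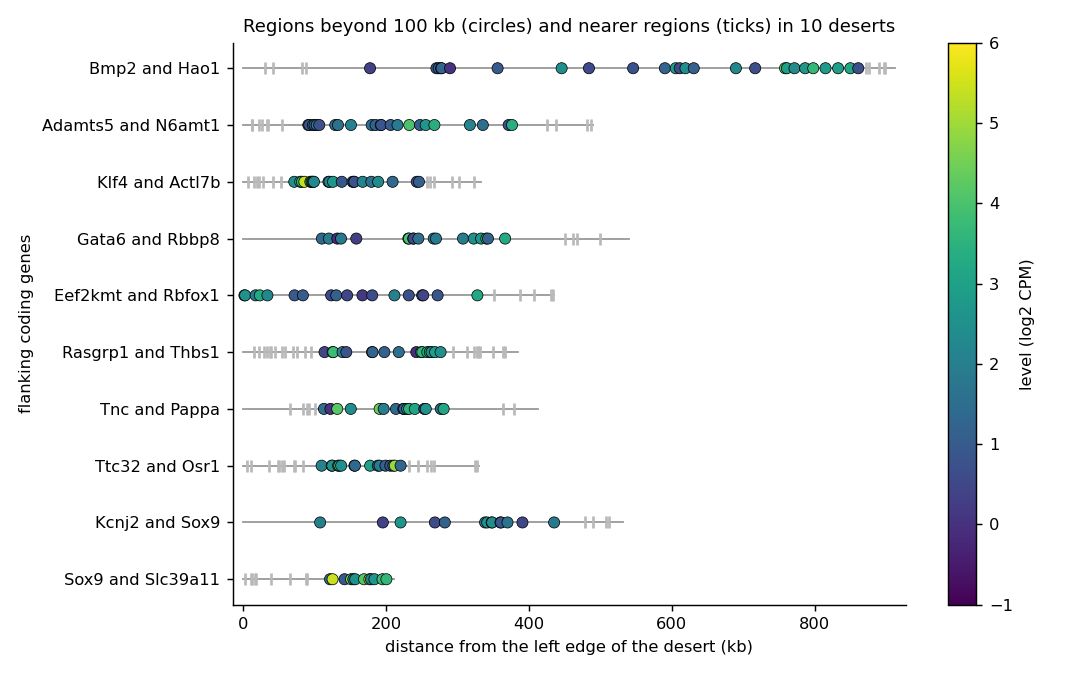
Each line is a desert named by its left and right coding neighbors, drawn in kb from its left edge. Circles are regions over 100 kb from any start, colored by level (log2 CPM), and gray ticks are gene-free regions nearer to a start. The bright circles of the desert between Bmp2 and Hao1 lie toward its right end, and those between Klf4 and Actl7b toward its left end.

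The strongest desert regions were wide and lay beside a variety of genes, and 3 of the 8 highest were deserts under the RefSeq annotation as well. The highest level, 6.39 over 1569 bp, exceeded nearly all listed regions. It lay 113 kb from the nearest start, 412 kb from Runx1, a transcription factor of blood formation, and 344 kb from Setd4, but 22629 bp from a RefSeq start. Regions past the end of Sox9 had 5.41 (chr11:112956675-112957869), 94612 bp from a RefSeq start, and 5.24 (chr11:113008232-113009574). The region near Klf4 (chr4:55721682-55722806) had 5.37. A region between the kinase gene Mast4 and the splicing gene Srek1 (chr13:103539362-103540513) had 5.34 and lay 32104 bp from a RefSeq start. Between Pard3, a cell polarity gene, and Nrp1, a co-receptor of VEGF and semaphorins, 1 region (chr8:128024859-128026045) had 5.18. Another, beside the Iroquois homeobox gene Irx1, had 5.02 and lies inside a RefSeq gene. The 8 highest regions, 1 of which is not described here, were all between 1121 and 1569 bp wide. None of these 8 held AP-1 letters in the central 200 bp, which allows up to 37.5%, while 3 held them elsewhere in the region. The position of the summit is not in the list, so the center of a wide region need not be its most accessible point.

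The regions farthest from any GENCODE start were of mixed strength. The farthest, 545 kb from a start and 1010 kb from Cntnap5a, a gene of the neurexin family, had a level of 4.41, above 86.8% of the list. Its neighbor (chr1:114681283-114681601, 538 kb) had 0.66. The next were a region between the cadherin genes Cdh8 and Cdh11 (chr8:102024559-102024799, 485 kb, level 1.71), a region of the desert beyond Bmp2 (chr2:134068114-134068322, 484 kb, level 0.58) and a region between Rgs18 and Brinp3 (chr1:145957654-145958413, 462 kb, level 2.54). This order holds for GENCODE starts. From RefSeq starts these 5 lay 188502, 181488, 94041, 324946 and 354813 bp away, which puts the last of them farthest and the third within 100 kb. The widest were 1621 bp between Csmd1 and Mcph1 (chr8:17664109-17665729, level 4.25), the 1569 bp beside Runx1, and 1542 bp between Lurap1l and Mpdz (chr4:81129059-81130600, level 3.44). The weakest lay between Nup35 and Zfp804a (chr2:81161078-81161277, level -0.78), between Agtr1b and Tbl1xr1 (chr3:21491959-21492158, level -0.20) and between Osr1 and Nt5c1b (chr12:10045677-10045966, level -0.19).

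Coding genes beside the regions were compared with fixed gene lists. In all, 697 coding genes were the nearest on either side of a desert region, 3.18% of 21911 coding genes and 46.9% (44.3 to 49.4%) of the 1487 that were the nearest coding gene to desert sequence at all. Many developmental and neuronal genes lie beside deserts, so the lists are compared on the latter share. Of 395 list genes, 189 lay beside desert sequence, 105 had a desert region beside them and 37 had at least 5. Over all coding genes, 172 of the 1487 (11.6%) had at least 5. Those 105 genes were neighbors of 578 desert regions (42.4%). Beside does not mean near. Among the 37 genes with at least 5 regions, the median distance from region to gene start exceeded 1000 kb for Zeb2 (1036), Gata3 (1069), Kcnj2 (1410), Cntnap5a (1540), Cadm2 (1027), Csmd3 (1631) and Pcdh7 (2245 kb), and for Acvr2a and Epha7, described next. Some list genes with fewer regions were as far from them. Of those 37 genes, Adamts5, Rbfox1, Runx1, Cadm2, Epha3 and Lsamp lie on chromosome 16. There 54 of 68 deserts held a region, against 454 of 1488 over all chromosomes. List shares without chromosome 16 were not computed. Of deserts with under 50 kb of eligible sequence, 110 of 551 held a region, against 40 of 68 with over 400 kb. The eligible sequence beside the genes of each list was not compared. Whether desert size accounts for differences between list shares was therefore not tested.

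Bone and growth factor signaling genes had the highest share among lists with over 10 genes beside desert sequence, with no allowance for desert size. Of 30 such genes 22 had a region, 73.3% (55.6 to 85.8%), and 9 (30%) had at least 5, against 11.6% of all coding genes beside desert sequence. Ligands were Bmp2 with 26, the BMP family genes Gdf6 with 15 (median level 0.93) and Bmp7 with 5 (1.06), and Rspo2, a Wnt pathway agonist, with 8 (1.19). Receptors were Fzd1, a Wnt receptor, with 14 (2.48, maximum 4.71), Acvr2a, an activin receptor, with 14 (1.69) at a median of 2660 kb from its start, and the ephrin receptor genes Epha3 with 7 (0.85) at 339 to 543 kb and Epha7 with 5 (2.01) at 2748 to 2955 kb. Igfbp3, which binds insulin-like growth factors, had 14 with a low median of 0.60.

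Skeletal and mesenchymal transcription factors had a region beside 19 of 30 genes, 63.3% (45.5 to 78.1%), with at least 5 beside 8 (26.7%). The list is broad, and its members Klf4 and Runx1 are described above by roles in other tissues. Klf4 had 29 over 2 deserts, Sox9 26, Osr1 21, and Zeb2, a repressor of epithelial genes, 14 (median 1.69). The 13 regions beside Runx1 had a median of 2.65 and lay 356 to 421 kb from its start. Sox6, a partner of Sox9 in cartilage, had 5 (1.47), and Nfib 5 (0.30). Matrix and adhesion genes had a region beside 18 of 27, 66.7% (47.8 to 81.4%), with at least 5 beside 6 (22.2%). These 6 were Adamts5 with 27, Cdh11, the cadherin of osteoblasts, with 17 (1.65), Thbs1 with 17, Tnc with 16, Slit2, a guidance ligand, with 8 (1.72), and the protease gene Adamts6 with 6 (1.99).

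Other lists lay near or below the share of all coding genes. Other developmental transcription factors had a region beside 18 of 37 genes, 48.6% (33.4 to 64.1%). The 4 with at least 5 (10.8%) were Gata6 with 18, Eya1, a gene of ear and kidney development, with 14 (2.28), Irx1 with 11 (1.83) and Gata3, a regulator of T cells, with 5 (1.14). Neuronal adhesion and synapse genes had a region beside 27 of 62, 43.5% (31.9 to 55.9%), and at least 5 beside 9 (14.5%). Rbfox1 had 22 (0.91), Kcnj2 14, Cntnap5a 12 (0.96), Cadm2 and Csmd3 9 each (0.87 and 2.64), Pcdh7 6 (0.96), and Cdh4, Flrt2 and Lsamp 5 each (0.93, 2.23 and 1.22). Of the AP-1 and hypoxia genes, 3 of 29 lay beside desert sequence and Maf alone had regions, 14 of them with a median of 1.69. The intervals of the bone signaling list and of all coding genes did not overlap, while those of the other lists did. Neighboring list genes share regions, so genes and lists are not independent of each other. List genes are also part of all coding genes, and the lists were chosen with earlier results known. The intervals are therefore no test of any list.

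**Figure D5:**
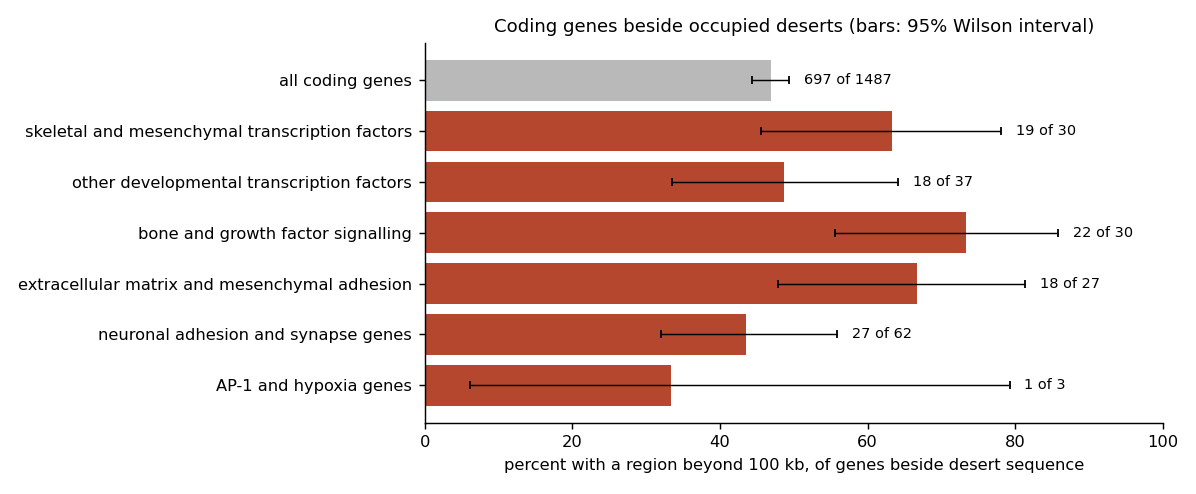
Bars give the percent of coding genes beside desert sequence that had a region beyond 100 kb from a start next to them, with 95% Wilson intervals and counts, for all coding genes (gray) and 6 gene lists (red). Bone and growth factor signaling genes reach 73.3% and neuronal genes 43.5%, against 46.9% for all coding genes. The shares are not adjusted for desert size.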

How the data were processed

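ATAC-seq was run on 11 MPC2 cultures in 4 groups. Per the labels and methods, the authors trimmed reads with Trim Galore, aligned them to mm10 with Bowtie2, removed duplicates with Picard 2.17.8, discarded low-quality and mitochondrial reads, and ran MACS2 2.2.7.1. They merged the peaks of several samples, removed blacklisted regions, counted Tn5 cuts with pyDNase, dropped regions with few cuts and normalized by TMM in edgeR 3.24.3. Merging can widen a region with each library that contributes, and level grows with width. A read shift for the Tn5 offset was not given in the sources used here, and 1 sample that they dropped for quality is not used here.

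The deposited list held coordinates and 1 value per region, which was read as log2 CPM averaged over all samples, because 460 values fell below 0 and the values, taken out of log2, added up to 1012761. That reading is inferred. No value per sample was present, so the planned tests between groups were not run and the depth per sample is unknown. All intervals are 95% intervals (Wilson for shares, their combination for differences of shares, order statistics for medians, Poisson for densities) and cover counting error only. The upper limit given beside a count of 0 is 3 counts of the total.

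Coordinates were taken as mm10 and written 1-based. Genes and transcript starts came from GENCODE vM21, and sequence, repeat masking and a second annotation from RefSeq GRCm38.p6, the same assembly. Distance was measured from the nearer edge of a region to the nearest start. Motifs were searched on both strands in the central 200 bp and in windows of that size 10 kb to either side that overlapped no region. Eligible sequence is gene-free called sequence beyond the limit, base by base. Python 3.11.15, numpy 2.4.6, pandas 2.3.3 and scipy 1.17.1 were used, and the rule, distances and motif search were tested on simulated data.

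The set of regions and the gene lists were chosen with earlier results of these data known. Named were the 8 deserts with most regions and those beside Sox9 and Runx2, the 8 highest, 5 farthest, 3 widest and 3 lowest regions, their coding neighbors, the 3 regions on each side of the limit, and list genes with at least 5 regions beside them. Of these, 1 region and 1 gene are not reported here. Alternatives covered the annotation, the limit (50 and 200 kb), region midpoints, regions of at least 500 bp, joining within 500 bp, chromosomes, motif letters and width bins. The RefSeq annotation, bins of GC content and motifs without chromosome 16 were added after seeing the data.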

Additional observations from a re-analysis of the deposited data

How the results depend on the processing

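No paired analysis was possible because each region has a single pooled value, and for the same reason no replicate could be left out. Over 13 results and 58 alternatives, 24 values stayed within the interval of the reported value (for counts, within 1.5 times it) and 34 moved. No difference whose interval left out 0 changed sign, while the AP-1 difference, whose interval included 0, did. The number of desert regions depended most on the rule. It was 10132 (10.7% of the list) with protein-coding genes and starts only, 4593 (4.84%) with a limit of 50 kb, 256 (0.270%) with 200 kb, 465 (1.07% of regions as wide) with regions of at least 500 bp, and 788 (0.830%) with RefSeq genes and starts as well, an alternative chosen after seeing the data. The median level was 2.83, 1.65 and 1.31 with regions of at least 500 bp, a limit of 50 kb and a limit of 200 kb, and its difference from the nearer class -0.20, -0.20 and -0.50. Within 20 bins of width that difference was -0.13. Density per Mb was 11.1 with 50 kb, 5.77 with 200 kb, 2.57 with regions of at least 500 bp, 8.05 on autosomes and 6.80 without chromosome 16. Its ratio to the nearer class was 0.442, 0.288, 0.303, 0.317 and 0.322 in that order. AP-1 was found in 23.5% of whole regions and, as TGANTCA, in 20.2% of central windows. Its difference between classes was -0.68 points in whole regions (-2.94 to 1.72) and 2.28 points as TGANTCA (0.16 to 4.56), so the interval included 0 with the stricter letters and left it with the looser ones. The HRE core was found in 25.6% of whole regions and 7.48% of windows as ACGTG, with differences of -11.7 and -1.55 points. Deserts with at least 5 regions flanked 32 list genes, against 105 with any region and 80 with at least 2. Since depth per sample is unknown, a desert without a region is below detection in this list and not shown to be closed.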

Other observations

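Some deserts with fewer regions, chosen after their values were seen, were also dense. The 13 regions beside Runx1 lay on 80.4 kb of eligible sequence, or 16.2 per 100 kb, the densest of the 30 deserts with at least 10 regions. A desert between Nyap2 and Irs1, the gene of an insulin receptor substrate (chr1:81797947-82105179), held 12 regions at 11.1 per 100 kb. Their median level was 2.47 and the maximum 4.07, and 4 of them had an AP-1 site, against 15.2% of all desert regions. A desert between Trib2 and Lpin1, a phosphatidate phosphatase of fat metabolism (chr12:16286120-16535668), held 14 at 10.8 per 100 kb, with a median of 1.96.

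The largest deserts without a single region, also chosen after their values were seen, held 654 to 720 kb of eligible sequence each. They lay between 9130204L05Rik and Pglyrp3 (chr3:91090804-92010755), Kcnt2 and Cdc73 (chr1:141547478-142455199), Cdh2 and Dsc3 (chr18:18244158-19133216), Dnah5 and Ctnnd2 (chr15:28857773-29713330), and Epha5 and Cenpc1 (chr5:84866846-85720773). In these 5 deserts no region of any distance class was listed. Cdh2 encodes the N-cadherin of mesenchymal cells, and a different desert beside it held 4 regions, with a median level of 0.64 and a maximum of 2.48.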
